A study of Mus musculus with 2 samples.

Results

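The Platr genes (pluripotency-associated transcripts) were taken as all rows of the count table whose Ensembl identifier carries a symbol made of Platr and digits in the GENCODE annotation of GRCm38. The rule gave 30 genes of 46983 rows. GENCODE places 20 of them in the class lincRNA, 6 in processed_transcript, 1 each in antisense and sense_intronic, and 2, Platr17 and Platr25, in protein_coding. They are spread over 13 chromosomes, 7 of them on chromosome 2, and each has more than 1 exon block. The counts came from RNA sequencing of total RNA from 46C cells, embryonic stem cells of the mouse with a green fluorescent protein reporter at Sox1, grown on feeder cells in serum medium with leukaemia inhibitory factor (LIF). In one culture a short hairpin RNA targeted linc1557, a long noncoding RNA, and in the other the hairpin was a control, with 1 library from each. The labels describe the hairpin as cloned into the pLKO.1-TRC viral vector, with stably infected clones picked after puromycin selection, so a difference between clones and an effect of the hairpin cannot be told apart. The row of linc1557 itself could not be matched, and its level was not analysed here.

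Long noncoding RNAs are transcripts without a known protein product, and many act on chromatin or on the transcription of nearby genes. Platr genes were grouped because their expression tracks the undifferentiated state of embryonic stem cells, where factors such as OCT4, SOX2 and NANOG hold the self-renewing programme. Functions have been described for only some of them. Platr10 RNA binds chromatin and has been tied to the gene of OCT4, Platr14 depletion alters genes of differentiation, Platr22 has been linked to pluripotency enhancers, and Platr4 to mesoderm formation.

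Of 23 Platr genes that passed a count filter, 17 (73.9%) were higher in the linc1557 hairpin library, a few of them several-fold. That share was 64.5% over other long noncoding genes and 51.9% over all genes that passed the filter. Platr15, Platr26 and Platr9 were 4.71-fold to 6.76-fold higher, Platr12 and Platr28 just over 2-fold higher, and Platr5 was 3.95-fold lower. Platr9 and Platr5 had few counts and passed the filter in 1 library only, the one in which they were higher. Of the longest Platr15 transcript, 81.5% is shared with other genes. Platr10 and Platr14, which had the highest levels in the control library, were 1.70-fold and 1.65-fold lower. The next in level there, Platr11, Platr3 and Platr16, were 1.56-fold, 1.78-fold and 1.68-fold higher.

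Promoter sequences are shown for Platr26 and Platr9, which were called higher, for Platr5, which was called lower, and for the abundant Platr10 and Platr14. They come from RefSeq (GRCm38.p6), run 5′ to 3′ from 250 bases before to 50 bases after the RefSeq start, and lie at chr2:71719167-71719466 (plus strand), chr4:34911432-34911731 (minus), chr1:88754640-88754939 (plus), chr3:75655682-75655981 (minus) and chr2:104559209-104559508 (plus). Capitals mark matches to the searched motifs described after the sequences, and a sequence without capitals holds none.
Platr26: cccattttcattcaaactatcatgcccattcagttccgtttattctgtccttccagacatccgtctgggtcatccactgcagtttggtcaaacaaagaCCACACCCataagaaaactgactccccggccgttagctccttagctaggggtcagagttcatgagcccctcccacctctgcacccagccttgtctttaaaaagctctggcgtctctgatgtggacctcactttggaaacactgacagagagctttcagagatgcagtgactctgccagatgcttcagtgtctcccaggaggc
Platr9: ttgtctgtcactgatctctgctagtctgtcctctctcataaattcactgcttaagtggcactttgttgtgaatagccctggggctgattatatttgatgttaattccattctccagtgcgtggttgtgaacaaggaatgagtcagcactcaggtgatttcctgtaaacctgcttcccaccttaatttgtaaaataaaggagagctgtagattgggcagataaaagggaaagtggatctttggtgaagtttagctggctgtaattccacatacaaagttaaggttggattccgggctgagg
Platr5: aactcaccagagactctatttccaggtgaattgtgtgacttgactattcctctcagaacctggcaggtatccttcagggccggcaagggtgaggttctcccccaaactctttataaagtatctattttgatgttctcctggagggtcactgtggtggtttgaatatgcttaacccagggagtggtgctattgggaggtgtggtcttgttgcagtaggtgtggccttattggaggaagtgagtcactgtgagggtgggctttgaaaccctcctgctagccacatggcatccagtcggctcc
Platr10: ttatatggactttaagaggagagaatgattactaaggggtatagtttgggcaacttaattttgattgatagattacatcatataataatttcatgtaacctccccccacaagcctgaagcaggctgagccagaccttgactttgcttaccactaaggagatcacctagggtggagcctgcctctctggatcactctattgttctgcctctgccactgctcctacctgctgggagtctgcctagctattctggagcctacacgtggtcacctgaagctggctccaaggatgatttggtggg
Platr14: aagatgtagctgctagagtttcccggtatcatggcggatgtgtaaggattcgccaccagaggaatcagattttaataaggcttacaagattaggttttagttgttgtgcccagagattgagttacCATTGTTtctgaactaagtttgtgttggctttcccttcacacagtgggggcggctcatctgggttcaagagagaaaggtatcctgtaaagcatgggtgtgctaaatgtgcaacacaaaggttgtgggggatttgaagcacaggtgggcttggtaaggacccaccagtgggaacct

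The RefSeq table gave 15 promoter windows for 13 of the 30 genes. Their median GC content was 49%, with a range of 39% to 52%, against a median of 52.7% over all 32851 windows of the table. They held a median of 4 CpG pairs (0 to 9), against 7 over all windows. These are sparse CpG counts, and the Platr10 window above held 1 CpG. Both strands were searched for 5 short motifs. The octamer ATGCAAAT, bound by OCT4, was found in 1 member window, that of Platr21, and in 1.74% of all windows. The SOX motif CATTGTT was found for Platr14 and Platr8 and in 3.78% of all windows, and the KLF motif CCACACCC for Platr26 and in 3.56%. The ESRRB motif TCAAGGTCA and the STAT motif TTCCNGGAA were in no member window, and in 0.423% and 1.15% of all windows. In the sequences above, the KLF letters of Platr26 begin 152 bases and the SOX letters of Platr14 begin 125 bases before the start. The Platr14 window starts from a RefSeq start 296 bases inside the GENCODE gene, while those of the other 4 genes shown use the same start as GENCODE. The motifs do not overlap one another in these windows.

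Levels are given as RPKM, the count per kilobase of the deposited gene length and per 1000000 counts after TMM scaling (trimmed mean of M-values, which sets the 2 libraries on a common scale), so that genes of different length can be compared. Every Platr gene had at least 1 count in both libraries. In the control library the order was led by Platr10 at 55.7 RPKM, Platr14 at 22.5, Platr11 at 16.0, Platr3 at 14.2 and Platr16 at 12.0. In the linc1557 hairpin library Platr10 again came first, at 32.8 RPKM, but Platr3 (25.2), Platr11 (24.9) and Platr16 (20.1) then stood above Platr14 (13.6). At the other end, Platr1, Platr2, Platr9, Platr19, Platr23, Platr29, Platr30 and Platr31 were below 1 RPKM in both libraries. Of these, Platr19, Platr23 and Platr31 had at most 6 counts in either library. Of the 30 genes, 23 reached 1 CPM (count per 1000000) in at least 1 library and were entered in the comparison. Their median was 5.39 RPKM in the linc1557 hairpin and 2.92 in the control library, against 1.31 and 1.05 for 1065 other long noncoding genes that entered.

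**Figure D1:**
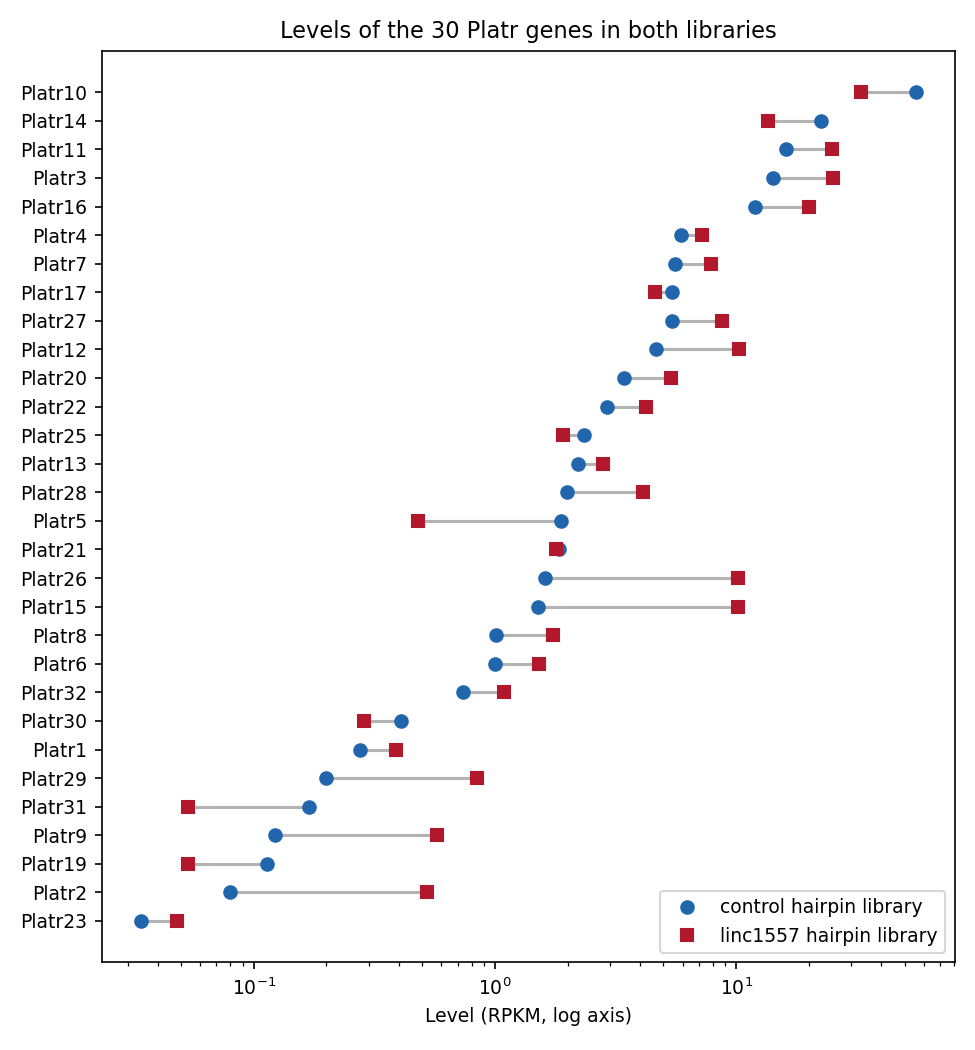
Level of each of the 30 Platr genes in RPKM (log axis), ordered by the control library. Circles are the control hairpin library, squares the linc1557 hairpin library, and each point is 1 library. Platr10 is highest in both (55.7 and 32.8 RPKM), and Platr15 and Platr26 go from 1.51 and 1.62 to 10.2 RPKM.

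With 1 library per group there is no spread between replicates and no test. Ratios are linc1557 hairpin over control, the intervals in brackets are exact 95% intervals for counting error only, and they say nothing of the variation between cultures or clones. Reads without molecular identifiers may be duplicates, so the intervals can be too narrow. The call of a gene as higher or lower needed a difference of 2-fold or more and an interval that excluded 1. Of all 15850 entered genes, 14.2% were called, 4.68% higher and 9.48% lower. Of the 23 entered Platr genes, 5 (21.7%) were called higher, 1 (4.35%) was called lower and 17 were not called. Their median log2 ratio was 0.60, beside 0.02 over all entered genes. The 1065 other long noncoding genes had a median of 0.23, with 124 (11.6%) called higher and 82 (7.7%) lower, so the Platr genes stood on the same side as other noncoding genes. Among the 1033 other long noncoding genes in the members' range of mean CPM, 11% were called higher. Entry itself depends on the level: Platr1, Platr5, Platr9 and Platr13 reached 1 CPM in 1 library only, the one in which they were higher.

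**Figure D2:**
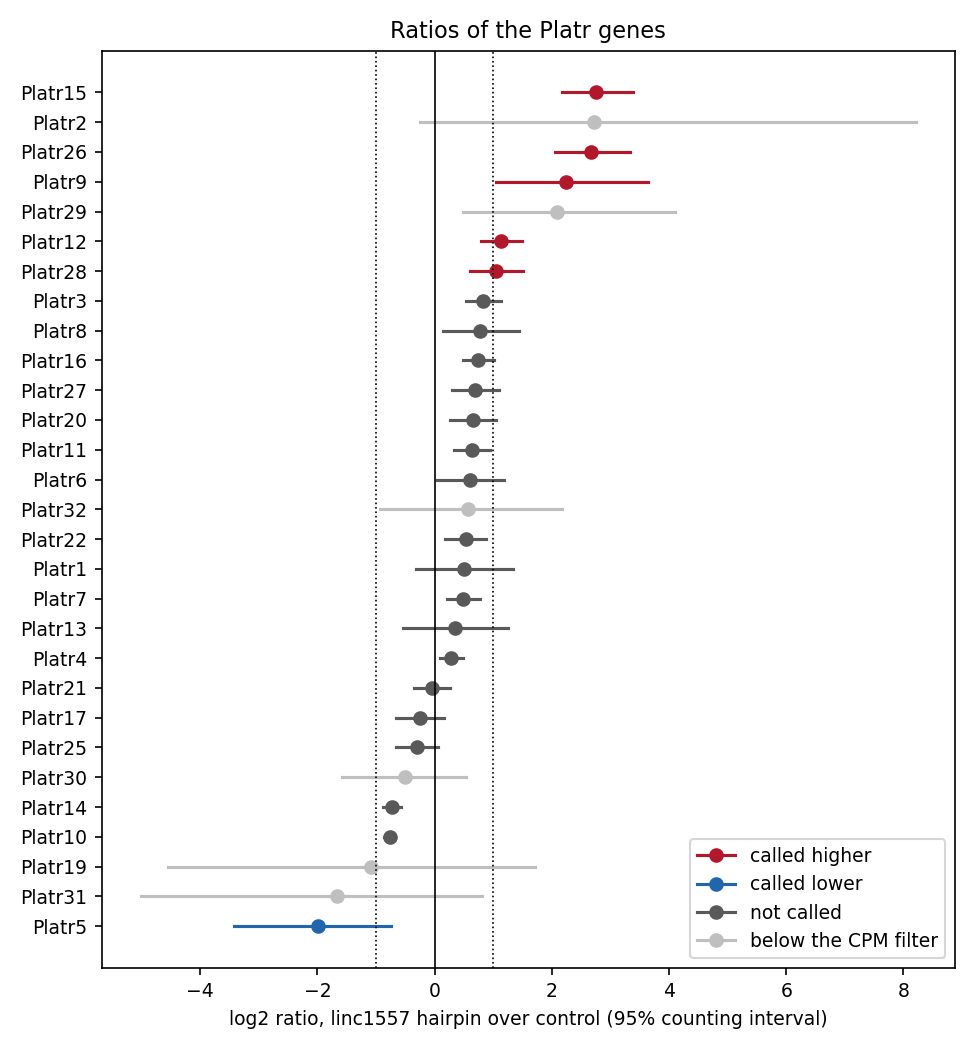
log2 ratio (linc1557 hairpin over control) of the 29 Platr genes for which a ratio was computed, with the 95% counting interval as a bar; dotted lines mark 2-fold. The 5 genes called higher are at the right and Platr5 at the bottom left, and the pale genes, which did not reach 1 CPM, have wide intervals.

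Platr15 showed the largest ratio of the entered members. This gene lies on chromosome 2 from 150704536 to 150706876 in GRCm38, minus strand (ENSMUSG00000086563). It had 201 counts in the linc1557 hairpin and 28 in the control library, a 6.76-fold higher level (4.54 to 10.4). Platr15 shares sequence with Platr13, on chromosome 11, which had 27 and 20 counts and a log2 ratio of 0.35 (-0.54 to 1.26). Bases 192 to 466 of the longest Platr15 transcript align with bases 99 to 375 of the Platr13 transcript at 94.9% identity, with 12 mismatches and 2 gap positions. The 2 stretches are shown because reads from them could fall on either gene. They come from GENCODE transcripts of GRCm38, and capitals mark bases that differ or have no partner.
Platr15: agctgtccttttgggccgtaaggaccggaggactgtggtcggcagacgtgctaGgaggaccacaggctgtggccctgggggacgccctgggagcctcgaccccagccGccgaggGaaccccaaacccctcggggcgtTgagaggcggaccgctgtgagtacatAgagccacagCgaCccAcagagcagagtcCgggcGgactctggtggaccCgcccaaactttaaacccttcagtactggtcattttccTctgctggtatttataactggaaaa
Platr13: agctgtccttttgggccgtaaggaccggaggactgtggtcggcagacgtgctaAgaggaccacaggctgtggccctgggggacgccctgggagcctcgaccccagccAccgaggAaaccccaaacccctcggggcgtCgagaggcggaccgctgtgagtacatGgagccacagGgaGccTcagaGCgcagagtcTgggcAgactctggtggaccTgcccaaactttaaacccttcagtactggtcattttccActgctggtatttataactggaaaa

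The pair therefore had a high ratio for the one copy and, for the other, a ratio whose interval included 1. Stretches of at least 100 bases at 90% identity were also found in 17 genes other than Platr15 itself, covering 81.5% of its longest transcript. How reads that fit several places were counted is not given in the sources used here, so the Platr15 value is uncertain to that extent.

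Platr26 is the other entered member with a ratio above 6-fold, and its transcript shared no such stretch with another gene. It lies on chromosome 2 from 71719417 to 71730966, plus strand (ENSMUSG00000064263), with its promoter printed above. It had 168 counts in the linc1557 hairpin and 25 in the control library, 6.33-fold higher (4.14 to 10.1). Its level was thus 1.62 RPKM in the control and 10.2 RPKM in the linc1557 hairpin library, where it stood beside Platr12 and Platr15, both also at 10.2.

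Platr9, on chromosome 4 from 34906124 to 34911481 (minus strand), had 35 against 7 counts and was 4.71-fold higher (2.06 to 12.6). Its exons overlap those of Cga, the gene of the hormone alpha subunit, on the opposite strand over 305 bases, and Cga had 10 against 3 counts. Whether the counting used strand is not given, so reads of the 2 genes cannot be told apart there. A further caution is that 39.1% of its longest transcript was shared with other genes. Both this gene and Platr5 had few counts, and their intervals are correspondingly wide. The level of Platr9 was 0.57 RPKM in the linc1557 hairpin and 0.12 in the control library, and it did not enter with a filter at 5 CPM.

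Platr12 and Platr28 passed the 2-fold line narrowly. Platr12 (chromosome 1, 63200313 to 63207967, plus strand) had 239 against 102 counts and was 2.21-fold higher (1.74 to 2.81). Platr28 (chromosome 7, 107243022 to 107300396, plus strand) had 136 against 62 counts and was 2.06-fold higher (1.52 to 2.83). Scaling by total counts ended the call of Platr28, at a log2 ratio of 0.93. Platr12 overlaps the gene Gpr1 on the opposite strand without sharing exon bases, and Gpr1 had 11 and 12 counts. Of the 5 genes called higher, 3 (Platr9, Platr15 and Platr28) share transcript sequence with other genes. Among the 14 entered members whose longest transcript showed no shared stretch, 2 were called higher and 1 lower, and the median log2 ratio was 0.62. The shares were 4.68% higher and 9.48% lower over all entered genes, and 11.6% and 7.7% over other long noncoding genes. The 14 include Platr12 and Platr14, whose longest transcripts are shorter than their deposited lengths, and the Platr17 transcript did match a transcript of Platr14. The single lower call is about what the share over all genes gives.

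Platr5 was the member called lower. It lies on chromosome 1 from 88754890 to 88755736, plus strand (ENSMUSG00000097398), and had 7 counts in the linc1557 hairpin against 26 in the control library. It was 3.95-fold lower (1.67 to 10.8). This rests on few counts, and the gene did not enter with a filter at 5 CPM.

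Platr10 and Platr14 carried enough counts for narrow intervals and were lower without reaching 2-fold. Platr10 (chromosome 3, 75647446 to 75655731, minus strand) had 1467 against 2344 counts and stood 1.70-fold lower (1.59 to 1.81). Platr14 (chromosome 2, 104559163 to 104571429, plus strand) had 551 against 856 counts and stood 1.65-fold lower (1.48 to 1.84). The share of Platr10 in all Platr counts was 26.6% in the linc1557 hairpin and 43.8% in the control library. The summed level of the 30 genes was 215 CPM in the linc1557 hairpin and 222 in the control library, but 158 and 125 CPM without Platr10. The sum over the group was thus nearly level (log2 ratio -0.04) and depended on whether its most abundant member was included.

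Between these stood 10 entered members that were higher with an interval above 1 but under 2-fold. Platr3 was nearest to the line, with 266 against 141 counts and 1.78-fold higher (1.44 to 2.19), and Platr4 was the smallest of them, with 471 against 363 counts and 1.22-fold higher (1.06 to 1.40). Platr22, the enhancer-linked RNA, had 175 against 114 counts and a log2 ratio of 0.53 (0.18 to 0.88). The others were Platr8 (log2 ratio 0.78), Platr16 (0.75), Platr27 (0.69), Platr20 (0.66), Platr11 (0.64), Platr6 (0.60) and Platr7 (0.49). Platr16 shares 290 exonic bases, 43.6% of its exons, with the transcribed pseudogene Gm13230 on the same strand, which had 907 against 567 counts and a log2 ratio of 0.59 (0.44 to 0.74). Its ratio therefore cannot be separated from that of Gm13230 with counts per gene.

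For 5 entered members the interval included 1. Platr1 had 33 against 22 counts, Platr17 95 against 106, Platr21 185 against 179 and Platr25 123 against 142, and Platr13 was given above. At these counts no difference was detectable. RefSeq lists Platr17 as a synonym of Smim40, a protein-coding gene. The 7 members under 1 CPM were Platr2 (7 against 1 counts), Platr19 (2 against 4), Platr23 (3 against 2), Platr29 (18 against 4), Platr30 (15 against 20), Platr31 (2 against 6) and Platr32 (11 against 7). Of these only Platr29 had an interval that excluded 1, at 4.24-fold higher (1.40 to 17.2), and no ratio was computed for Platr23.

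**Figure D3:**
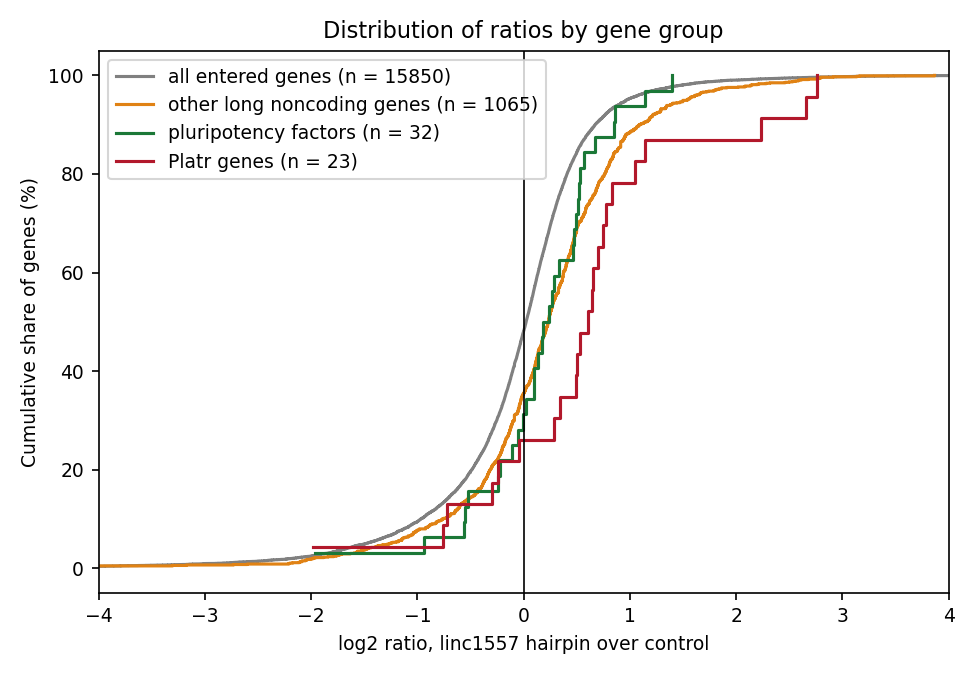
Cumulative share of genes (%) against the log2 ratio (linc1557 hairpin over control), for all entered genes, other long noncoding genes, pluripotency factors and entered Platr genes. The axis is cut at -4 and 4. The Platr line lies to the right of the others over most of its range, with medians of 0.60 (Platr), 0.23 (other long noncoding), 0.21 (pluripotency factors) and 0.02 (all).

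The protein-coding side of pluripotency was read from 32 factors. Of these, 2 were called higher, 1 lower and 29 were not called, with a median log2 ratio of 0.21. The called share of 9.38% was below the 14.2% of all entered genes. Gbx2, a homeobox factor, was 2.63-fold higher (2.30 to 3.00), and the T-box gene Tbx3 2.20-fold higher (2.04 to 2.37). Dppa3, which protects maternal imprints, was 3.91-fold lower (3.06 to 5.06). Of 20 genes that silence retroelements, from whose long terminal repeats many stem cell noncoding RNAs start, none was called, and the median was 0.03. Trim28, the corepressor recruited by KRAB zinc finger proteins, had a log2 ratio of -0.10 and Rif1 0.12. Of 22 entered genes on a list of well-known long noncoding RNAs, none was called higher and 2 were called lower, with a median of 0.00. The 2 were the imprinted transcripts H19, with 473 against 1235 counts and 2.77-fold lower (2.49 to 3.09), and Airn, with 21 against 57 counts and 2.88-fold lower (1.72 to 5.01).

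Genes of the primitive streak and endoderm were all called lower, 12 of 12, with a median log2 ratio of -6.11. They include Cer1 (3 against 892 counts) and Lhx1 (2 against 566). Of the 30 feeder fibroblast markers, 20 were also called lower, none was called higher, and the median log2 ratio was -1.36. Over all entered genes 9.48% were called lower. Both lists were chosen with earlier results of these data known, so these counts are descriptions only. The summed level of the 30 feeder markers was 2079.5 CPM in the linc1557 hairpin and 3617 in the control library, 1.74-fold apart. Fn1 alone held 1058 and 1199 CPM of these sums, at a log2 ratio of -0.18. Single markers ran from 0.26 for Dcn to -3.46 for Mgp. None of the 30 markers was at 0 in either library. In bulk RNA, fewer cells of a type and less RNA per cell cannot be told apart. The part of the feeder and differentiated cells in the Platr ratios was not tested.

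Some Platr genes lie beside regulators of development, and each entered member was set beside its nearest protein-coding gene on either side. Protein-coding genes that overlap a member were left out of this set. Of 46 such neighbours 41 entered, and 4 were called lower and none higher, 9.76% against 14.2% of all entered genes. Of the 41 pairs, 24 had ratios on the same side of 1, but no share for unrelated genes was computed to set beside this count. Only 1 pair had both genes called, and it was Platr5 with Arl4c, an ARF-like small GTPase gene 52.7 kb away. Arl4c had 138 against 690 counts and stood 5.31-fold lower (4.42 to 6.42), the same side as Platr5.

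The other neighbours called lower stood beside members that were not called. Eomes, a T-box factor of mesendoderm, lies 72.1 kb from Platr11 and had 116 against 514 counts, 4.71-fold lower (3.84 to 5.81), while Platr11 had 248 against 150 counts and was 1.56-fold higher (1.27 to 1.92). Hipk3, a protein kinase gene 64.7 kb from Platr14, was 2.37-fold lower (2.09 to 2.69). Mum1l1, 1.89 kb from Platr21, was 2.17-fold lower (1.83 to 2.59), with Platr21 itself near 1. Thus a Platr gene and a called neighbour went the same way for Platr5 and Platr14 and opposite ways for Platr11.

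Next to the members called higher, no neighbour that entered was called. Itga6, an integrin subunit gene 14.7 kb from Platr26, had 4056 against 2570 counts and was 1.49-fold higher (1.41 to 1.56). Zdbf2, an imprinted gene 65.3 kb from Platr12, was 1.43-fold higher (1.36 to 1.49). Eef1b2, on the other side of Platr12, had a log2 ratio of -0.11. Beside Platr9, Zfp292 had a log2 ratio of 0.35 and Mob3b -0.15. Beside Platr28, Syt9 had 0.41 and Rbmxl2 0.20, and beside Platr15, Entpd6 had -0.13. Vsx1, the other neighbour of Platr15, and Dlx2, that of Platr26, did not enter, with 1 against 0 and 2 against 5 counts. Sh3bp4, the other neighbour of Platr5, had a log2 ratio of -0.21. Platr22 lies 116 kb from Nr5a2, a nuclear receptor of the naive state, which was 1.43-fold higher (1.34 to 1.53), close to the 1.44-fold (1.13 to 1.85) of Platr22. Zfp281, the nearer neighbour of Platr22 at 66.2 kb, was 1.12-fold higher (1.07 to 1.18).

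**Figure D4:**
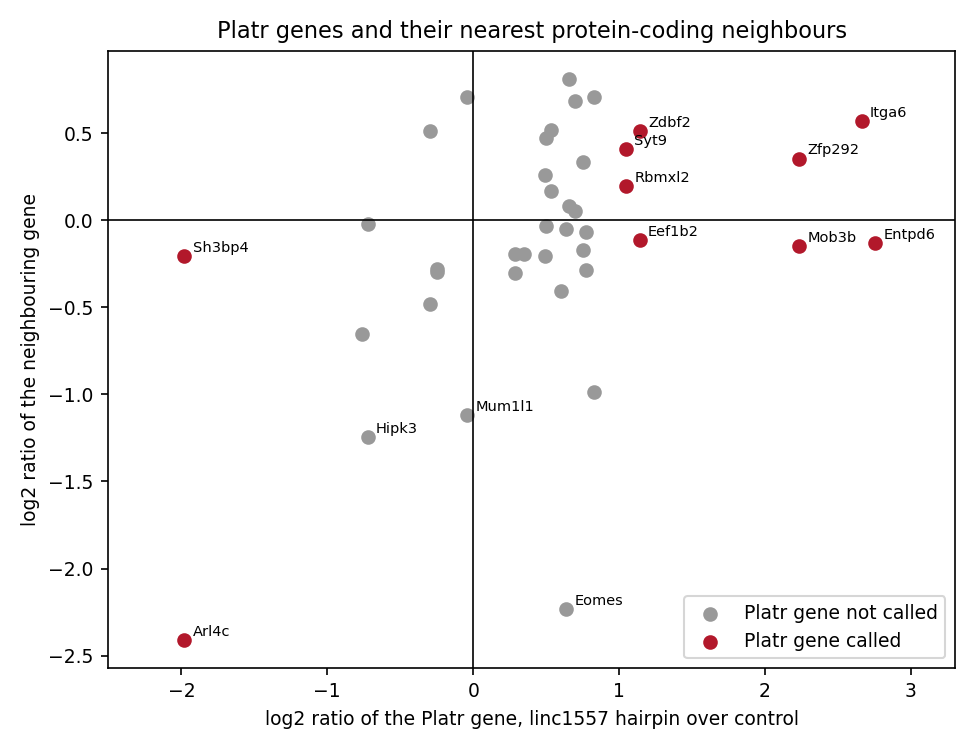
log2 ratio of the nearest protein-coding gene on either side that does not overlap (vertical) against that of the Platr gene (horizontal), 41 pairs with both genes entered. Red points belong to called Platr genes. Names are given where the Platr gene or its neighbour was called: Arl4c is lower beside Platr5, and Eomes is lower beside Platr11.

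Shared sequence was common in the group. For 13 of the 30 genes, the longest transcript held a stretch of at least 100 bases at 90% identity to a transcript of another gene, and for 9 of them at least 10 such genes were found. Platr1 had 1408 such genes through stretches that cover 10% of its transcript, and Platr28 had 365 through 25.3%. Platr30, Platr2 and Platr13 were covered over 100% of their length by 3, 2 and 3 other genes. The longest transcripts of the other 17, among them Platr3, Platr12, Platr14 and Platr26, held none. Only longest transcripts were searched, which for Platr12 and Platr14 (549 and 770 bases) are shorter than the deposited lengths (911 and 1579). The search with the Platr17 transcript did match a transcript of Platr14.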

How the data were processed

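RNA was sequenced in 2 libraries of 46C mouse embryonic stem cells, 1 per group, and the deposited table holds raw read counts per gene and library with a gene length in bases. Trim Galore, HISAT2, featureCounts and DESeq with builds mm10 and GRCm38 are named per the submitters' processing notes. No version, strand option or rule for reads with several matches is given in the sources used here. Totals were 26693282 counts for the linc1557 hairpin and 23146210 for the control library. Symbols, classes and coordinates came from GENCODE M21 (GRCm38), which matched 46488 of 46983 identifiers. The deposited length equalled its exon union for 28 of 30 Platr genes.

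The TMM factors, from edgeR 4.0.16 under R 4.3.3, were 0.960 and 1.04. Ratios and exact Clopper-Pearson intervals were computed in Python 3.11.15 with scipy 1.17.1, with 3 counts as the floor in place of 0. Genes with at most 3 counts in both libraries got no ratio. Shared sequence was found with blastn 2.17.0. The script was tested on simulated data. The text names all Platr genes, the nearest protein-coding neighbours of those entered and genes overlapping them. Of each gene list except the feeder markers, it names the called genes (at most 4, by size of change). If none was called, the 2 most abundant are named. Of the feeder markers it names Fn1, the most abundant, and those with the highest and lowest ratio, Dcn and Mgp. Of neighbours and overlapping genes, those called, those beside called members and a few others are given, the last picked after their values were seen. The members and lists were chosen with earlier results of these data known. Alternatives are total-count and DESeq2 1.42.0 scaling, other filters, fold thresholds and a prior count.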

Additional observations from a re-analysis of the deposited data

How the results depend on the processing

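The median log2 ratio of the entered Platr genes was 0.60, and it lay between 0.37 and 0.65 under every setting run. DESeq2 size factors gave 0.64, TMM on nuclear protein-coding genes alone 0.62, total counts 0.48, a prior count of 2 gave 0.58, no filter 0.56 and members without exon overlap 0.53. Members called higher numbered 5 and those called lower 1 in the main setting. Total counts, a filter at 5 CPM (16 members entered) and members without exon overlap each gave 4 higher, and no filter gave 6. Of all genes, 587 were higher with total counts and 1006 with no filter. With thresholds of 1.5-fold and 4-fold, 12 and 3 were higher and 3 and 0 lower, and 1817 and 152 of all genes were higher and 2598 and 389 lower. With a filter at 5 CPM, 0 members were lower and, of all genes, 330 were higher and 728 lower, because fewer genes entered. The next settings were chosen after seeing the data. Centred on other long noncoding genes, 3 members were higher (Platr12 at 0.91 and Platr28 at 0.81 fell short) while of all genes 475 were higher and 2087 lower, and their median was -0.21. Without members whose longest transcript shares sequence with another gene, 2 were higher. Total counts moved the median of all genes from 0.02 to -0.10. No paired analysis was possible because each group has 1 library. Leaving out a library was not possible either.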

Other observations

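RefSeq gives Platr18 and Platr24 as synonyms of genes that GENCODE names Lncenc1 and Kis2, and the rule on symbols left them out. Lncenc1, a noncoding RNA of naive stem cells on chromosome 13, had 3769 counts in the linc1557 hairpin and 3854 in the control library, 1.09-fold lower (1.04 to 1.14). Its level of 44.6 and 48.4 RPKM lies in the range of Platr10. Kis2, on chromosome X, had 187 against 268 counts and stood 1.52-fold lower (1.26 to 1.85). Neither was called.

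Among the members under 1 CPM, 3 have a called neighbour, and these neighbours are named here after their values were seen. Gm10139, 268 kb from Platr2, had 57 against 19 counts and was called higher, by 2.82-fold (1.65 to 5.03), while Platr2 had 7 against 1. Mycn, the proto-oncogene 142 kb from Platr19, had 1361 against 3366 counts and stood 2.63-fold lower (2.47 to 2.80), while Platr19 had 2 against 4. Ccnd2, the cyclin D2 gene 14.7 kb from Platr31, had 690 against 1759 counts and stood 2.71-fold lower (2.48 to 2.96), while Platr31 had 2 against 6. The counts of Platr2, Platr19 and Platr31 are too few to show a direction. Trap1a, on the opposite strand within the span of Platr21 without shared exon bases, had 1812 against 1065 counts and was 1.60-fold higher (1.48 to 1.73), whereas Platr21 had 185 against 179.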
